A study of Homo sapiens with 12 samples.

Results

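Aminoacyl-tRNA synthetases are the enzymes that load each transfer RNA with its amino acid. The family was taken as 35 genes named by symbol, of which 19 encode enzymes of the cytosol and 16 encode enzymes of the mitochondrion, and a gene was tested where a probe was detected (detection p under 0.01) on at least 3 of the 12 arrays. This left 33 genes, 18 cytosolic and 15 mitochondrial, of 11808 genes tested in all. WARS2, the mitochondrial tryptophan enzyme, had 1 probe, detected on 1 array, and CARS1, the cytosolic cysteine enzyme, was not analysed here. The probe used for CARS2 was detected on 11 arrays and those of the other 32 genes on all 12.

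RNA came from HCC827-Del and HCC827-Del-TM, human lung adenocarcinoma lines that both carry the EGFR deletion L747-S752, to which HCC827-Del-TM adds EGFR T790M. EGFR is a receptor tyrosine kinase that drives such tumours. Each line received DMSO (the untreated control) or decitabine at 2.5 µM with vorinostat at 1 µM for 72 h, and 3 biological replicates per group were hybridised to 1-colour Illumina bead arrays. Decitabine blocks DNA methyltransferases and vorinostat blocks histone deacetylases, and since they were given together their effects cannot be told apart. The labels do not say how HCC827-Del-TM was derived or whether either line is a single clone, so a difference between the lines cannot be assigned to T790M alone.

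A synthetase activates its amino acid with ATP and joins it to the matching transfer RNA. Most amino acids have separate nuclear genes for the cytosolic and the mitochondrial enzyme, the latter imported to translate the few proteins encoded by mitochondrial DNA. GARS1 and KARS1 each give both forms, and QARS1 serves the cytosol while mitochondria make glutaminyl-tRNA by another route. EPRS1, IARS1, KARS1, LARS1, MARS1, QARS1 and RARS1 sit together in the multi-synthetase complex of the cytosol. Many cytosolic genes of the family are targets of ATF4, the transcription factor of the amino acid response, which binds CCAAT/enhancer binding protein and ATF response elements. WARS1 is also known for its induction by interferon gamma.

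Promoter windows from RefSeq (GRCh38.p14), running from 250 bases before to 50 after an annotated start, were found for 30 of the 35 genes. The letters TGATGNAA on either strand, a form of the ATF response element, were present in a window of 8 of the 30 genes (26.7%), beside 4.46% of 27305 genes with windows. Of the 8 genes, 7 were among the 16 cytosolic ones with a window and 1 was among the 14 mitochondrial ones. The stretches below show these letters, because the calls in each comparison are counted by them further on. They are written 5′ to 3′ along each gene's strand, with the match in capitals.
AARS1, chr16:70289675-70289704, minus strand: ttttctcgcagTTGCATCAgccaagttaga
CARS1, chr11:3057407-3057436, minus strand: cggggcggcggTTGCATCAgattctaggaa
GARS1, chr7:30594834-30594863, plus strand: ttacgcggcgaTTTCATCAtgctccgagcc
IARS1, chr9:92293692-92293721, minus strand: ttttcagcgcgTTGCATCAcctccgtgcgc
MARS1, chr12:57488053-57488082, plus strand: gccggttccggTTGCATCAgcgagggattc
NARS1, chr18:57621804-57621833, minus strand: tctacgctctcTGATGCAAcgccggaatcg
TARS1, chr5:33440956-33440985, plus strand: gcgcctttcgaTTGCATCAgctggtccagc
YARS2, chr12:32756076-32756105, minus strand: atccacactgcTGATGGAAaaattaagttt
In 6 of the 8 genes the match was exactly TTGCATCA or its complement, and GARS1 and YARS2 each differed from it at the base written N in the search. A match describes letters in a window and does not show that a factor binds there.

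A WARS1 start further inside the gene carried 2 other sets of letters in its window, shown because WARS1 is the enzyme whose response to treatment changed direction between the lines. The gene lies at chr14:100333790-100376327 on the minus strand. The interferon gamma-activated site was searched as TTCNNNGAA and the interferon-stimulated response element as GAAA, any 2 bases and GAAA again, both on either strand.
WARS1, chr14:100375470-100375499, minus strand, gamma-activated site: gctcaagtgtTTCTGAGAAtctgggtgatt
WARS1, chr14:100375383-100375412, minus strand, interferon-stimulated response element: tttcagaaggGAAACTGAAAgaaagagggg
The gamma-activated letters were present in 5 of the 30 genes (16.7%), beside 9.38% of all genes, and the response element letters in 2 (6.67%, WARS1 and EARS2), beside 4.38%. No 2 matches in a member's window overlapped.

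HARS1 and HARS2, the cytosolic and mitochondrial histidine enzymes, face away from each other on chromosome 5. Their annotated starts are 84 bases apart, shown here because both genes fell together in HCC827-Del-TM. In HCC827-Del HARS1 was called lower and HARS2 was not (log2 fold change -0.12, limma adjusted p 0.208). Between the treated lines HARS2 was called lower in HCC827-Del-TM (-0.31, limma adjusted p 0.00336) and HARS1 was not called (-0.13, adjusted p 0.115).
HARS1 and HARS2, chr5:140691371-140691454, plus strand: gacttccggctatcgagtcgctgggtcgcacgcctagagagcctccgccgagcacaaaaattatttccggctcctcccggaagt

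Between 16251 and 19671 probes were detected per array, the log2 values of replicates correlated at 0.9951 to 0.9961 across genes, and those of arrays from different groups at 0.9308 to 0.9723. All 6 epithelial markers, EPCAM, KRT7, KRT8, KRT18, KRT19 and CDH1, were detected on all 12 arrays. Of 9 markers of endothelium, fibroblasts and leukocytes, 5 were detected on at least 3 arrays. These were CD14 and COL1A1 (12 arrays each), CD3D (7), VWF (3) and PECAM1 (3), and CDH5, DCN and PTPRC were detected on 0. Both tested leukocyte markers, CD14 and CD3D, were called higher on treatment in both lines, CD14 by 1.57 in HCC827-Del and 1.05 in HCC827-Del-TM on the log2 scale (adjusted p 2.02e-08 and 1.7e-06). The summed signal of these 9 on a linear scale was 236 to 253 in untreated HCC827-Del, 540 to 602 in treated HCC827-Del, 376 to 411 in untreated HCC827-Del-TM and 649 to 660 in treated HCC827-Del-TM. Their part in the results below was not tested. Values are log2 intensities after background correction and quantile normalisation, differences were tested with limma over all 11808 genes, and a gene is called where its Benjamini-Hochberg adjusted p is under 0.05. Quantile normalisation gives every array the same distribution, so a change is relative to the other transcripts.

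Treatment of HCC827-Del raised 2 of the 33 synthetases and lowered 8. The share called was 30.3%, beside a background of 51.3% of all genes (24.8% higher and 26.5% lower). GARS1 and the mitochondrial valine enzyme VARS2 rose. The cytosolic EPRS1, HARS1, QARS1 and WARS1 and the mitochondrial FARS2, IARS2, PARS2 and TARS2 fell. The median log2 fold change was -0.08 over the 18 cytosolic enzymes and -0.12 over the 15 mitochondrial ones, beside -0.03 over all genes. These medians have no stable order: they were -0.03 and -0.13 without treated replicate 1, -0.10 and -0.06 without treated replicate 3, and -0.03 and -0.01 with median scaling.

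Treatment of HCC827-Del-TM raised 4 synthetases and lowered 14. The share called was 54.5%, beside 45.8% of all genes. The share called higher was 12.1%, beside 21.7%, and the share called lower was 42.4%, beside 24.1%. GARS1, SARS1, WARS1 and VARS2 rose. Of the 15 mitochondrial enzymes 9 fell and 1 rose, with a median of -0.23. Of the 18 cytosolic enzymes 5 fell and 3 rose, with a median of -0.14, and the median over all genes was -0.01. The groups did not overlap for 20 of the 33 synthetases, beside 54.5% of all genes. In HCC827-Del they did not overlap for 15, beside 58.3% of all genes.

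**Figure D1:**
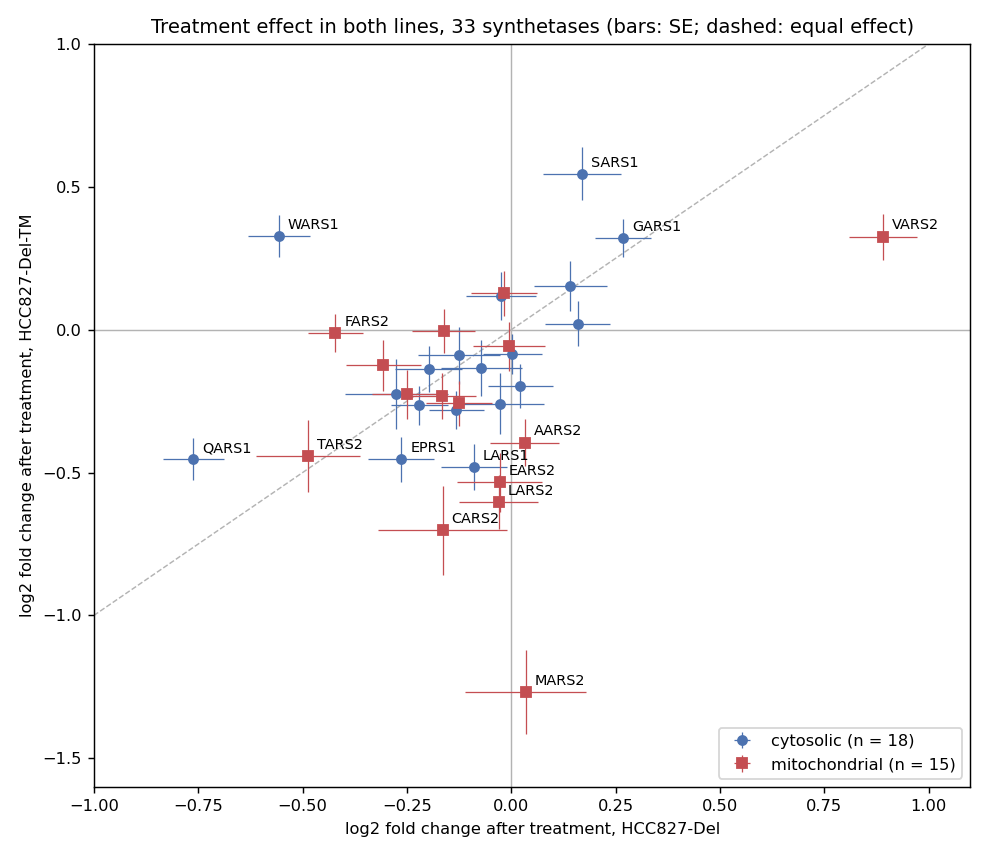
Log2 fold change after treatment in HCC827-Del (horizontal axis) and in HCC827-Del-TM (vertical axis) for the 33 synthetases, with cytosolic and mitochondrial enzymes in different colours, SE bars and a dashed line of equal effect. WARS1 lies at -0.56 and 0.33, MARS2 at 0.03 and -1.27, and VARS2 at 0.89 and 0.33.

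The calls of the lines set side by side show how far each enzyme moved in both. GARS1 and VARS2 were called higher in both lines, and EPRS1, HARS1, QARS1, IARS2 and TARS2 lower in both. WARS1 was lower in HCC827-Del and higher in HCC827-Del-TM. FARS2 and PARS2 were called, as lower, in HCC827-Del alone, and 10 enzymes were called in HCC827-Del-TM alone, SARS1 as higher and 9 as lower. The other 13 were called in neither. A call in one line alone does not show that the lines differ, and that difference was tested on its own: HCC827-Del-TM minus HCC827-Del in treatment effect was called for 10 synthetases, 4 higher and 6 lower. That is 30.3%, beside 42.5% of all genes (20.3% higher and 22.3% lower). The 5 mitochondrial enzymes with a lower effect in HCC827-Del-TM were AARS2, EARS2, LARS2, MARS2 and VARS2.

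WARS1, which charges tryptophan, was the enzyme with opposite calls. Its log2 intensity was 10.88, 10.75 and 10.88 in untreated HCC827-Del and 10.33, 10.18 and 10.32 after treatment. In HCC827-Del-TM it was 10.40, 10.33 and 10.50 untreated and 10.73, 10.71 and 10.77 treated. The groups did not overlap in either line, and the line with the higher level before treatment had the lower level after it. The log2 fold change was -0.56 (SE 0.0745, adjusted p 2.95e-05), or 1.47-fold lower, in HCC827-Del. It was 0.33 (SE 0.0745, adjusted p 0.00253), or 1.26-fold higher, in HCC827-Del-TM. The effects differed by 0.89 (SE 0.105, adjusted p 1.83e-05).

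A further WARS1 probe, annotated to another transcript of the gene, was detected on all 12 arrays and moved in the same directions. Its log2 fold change was -0.67 (adjusted p over kept probes 3.74e-05) in HCC827-Del and 0.53 (adjusted p 0.000306) in HCC827-Del-TM. The effects differed by 1.20 on this probe (adjusted p 8.34e-06). WARS1 was the only synthetase with more than 1 probe detected on at least 3 arrays.

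**Figure D2:**
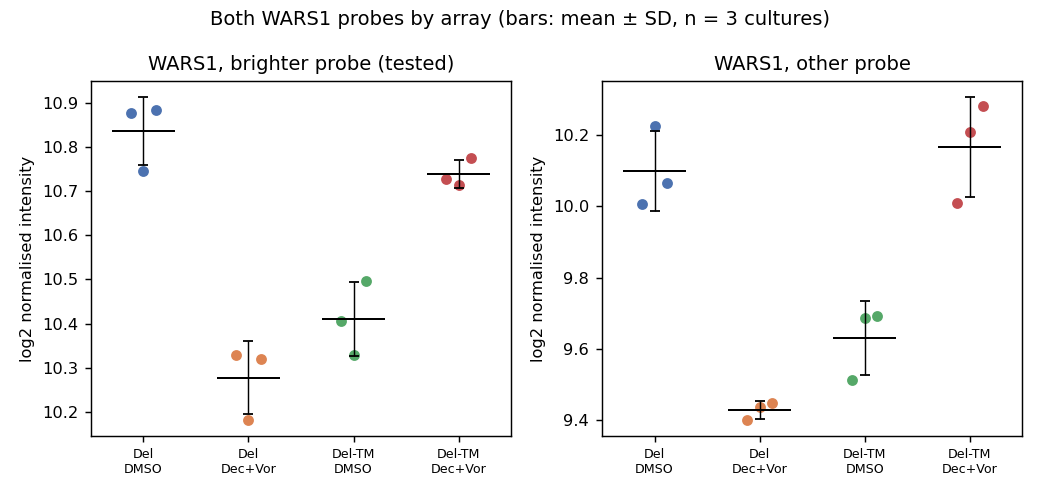
Log2 intensity of both WARS1 probes on each of the 12 arrays by group, with the mean and SD of 3 cultures. On each probe the treated HCC827-Del arrays lie below the untreated ones and the treated HCC827-Del-TM arrays lie above the untreated ones.

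Other interferon gamma response genes did not all follow WARS1. Of 14 tested of 18 listed, 6 rose and 1 fell on treatment in HCC827-Del, and 5 rose and 2 fell in HCC827-Del-TM, or 50% called in each, beside 51.3% and 45.8% of all genes. GBP2, an interferon-induced GTPase, rose by 0.47 on the log2 scale in HCC827-Del (adjusted p 0.00018) and by 0.97 in HCC827-Del-TM (adjusted p 2.6e-07). HLA-DRA, a class II antigen presentation chain, had -0.26 (adjusted p 0.029) and 1.22 (adjusted p 1.52e-07), which are opposite calls like those of WARS1. IRF1, an interferon-induced transcription factor, had 0.25 (adjusted p 0.0399) and -0.09 (adjusted p 0.492). The highest values of the list were those of CD74, at 1.20 in HCC827-Del and 1.30 in HCC827-Del-TM, the same direction in both lines. CD74 was detected on 0 of the untreated HCC827-Del arrays. IFI30 had the lowest value in HCC827-Del-TM, at -0.62.

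MARS2, which charges methionine in mitochondria, had the largest fall of the family in HCC827-Del-TM. Its gene lies at chr2:197705369-197708395 in GRCh38.p14. Log2 intensity was 7.31, 7.43 and 7.42 in untreated HCC827-Del-TM and 6.04, 5.82 and 6.50 after treatment. In HCC827-Del it was 7.26, 7.33 and 7.44 untreated and 7.29, 7.62 and 7.22 treated. The 3 treated HCC827-Del-TM arrays lay below all other arrays, which overlapped between groups. A further MARS2 probe was not detected on any array. MARS2 fell by 1.27 on the log2 scale (SE 0.146, adjusted p 8.82e-06), or 2.41-fold, in HCC827-Del-TM. In HCC827-Del the value was 0.03 (adjusted p 0.862), with a 95% interval of -0.279 to 0.348. The effects differed by -1.30 (SE 0.206, adjusted p 0.000203). Without background correction the fall in HCC827-Del-TM was 1.66-fold (log2 fold change -0.73, adjusted p 3e-08) and the effects differed by -0.76 (adjusted p 4.37e-06).

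LARS2, EARS2 and AARS2, which charge leucine, glutamate and alanine in mitochondria, also had lower treatment effects in HCC827-Del-TM. LARS2 was 6.84, 7.02 and 6.98 untreated and 6.27, 6.38 and 6.39 treated in HCC827-Del-TM. In HCC827-Del it was 7.17, 7.21 and 6.87 untreated and 7.11, 7.09 and 6.96 treated. The HCC827-Del-TM groups were apart and the HCC827-Del groups overlapped. LARS2 fell by 0.60 (SE 0.0943, adjusted p 0.000138), or 1.52-fold, in HCC827-Del-TM, against -0.03 (adjusted p 0.814) in HCC827-Del. The difference of -0.57 passed the test (adjusted p 0.00347). Without background correction LARS2 fell 1.27-fold (-0.34, adjusted p 4.92e-05) and the difference was -0.32 (adjusted p 0.00341).

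EARS2 was 7.87, 8.10 and 7.95 in untreated HCC827-Del-TM and 7.28, 7.54 and 7.49 after treatment. In HCC827-Del it was 8.09, 8.05 and 8.00 untreated and 7.80, 8.10 and 8.16 treated. The HCC827-Del-TM groups were apart and the HCC827-Del groups overlapped. The probe is annotated to a non-coding transcript record of the gene. EARS2 fell by 0.53 (SE 0.103, adjusted p 0.000739), or 1.45-fold, in HCC827-Del-TM, against -0.03 (adjusted p 0.837) in HCC827-Del, and the effects differed by -0.51 (adjusted p 0.0122). AARS2 fell by 0.40 (adjusted p 0.00144) in HCC827-Del-TM, against 0.03 (adjusted p 0.771), and the effects differed by -0.43 (adjusted p 0.00957).

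CARS2, which charges cysteine in mitochondria, was the one tested enzyme whose probe was not detected on every array. It was 5.92, 5.75 and 5.74 in untreated HCC827-Del-TM and 4.88, 5.34 and 5.07 after treatment. In HCC827-Del it was 5.88, 5.83 and 5.88 untreated and 6.13, 5.54 and 5.43 treated, with the treated arrays on both sides of the untreated ones. CARS2 fell by 0.70 (SE 0.155, adjusted p 0.00211), or 1.63-fold, in HCC827-Del-TM, and 1.19-fold (-0.25, adjusted p 0.00263) without background correction. The difference of -0.54 between the lines did not pass the test (adjusted p 0.0635).

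VARS2, the mitochondrial valine enzyme, rose in both lines and rose more in HCC827-Del. It was 8.44, 8.42 and 8.56 in untreated HCC827-Del and 9.45, 9.28 and 9.35 after treatment. In HCC827-Del-TM it was 8.00, 7.84 and 7.81 untreated and 8.25, 8.12 and 8.25 treated. All 4 groups were apart, and treated HCC827-Del-TM stayed below untreated HCC827-Del. The log2 fold change was 0.89 (SE 0.0810, adjusted p 7.22e-07), or 1.85-fold, in HCC827-Del and 0.33 (adjusted p 0.00464), or 1.25-fold, in HCC827-Del-TM. The effects differed by -0.56 (SE 0.115, adjusted p 0.00136).

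FARS2 charges phenylalanine and PARS2 proline, both in mitochondria, and both were called in HCC827-Del. FARS2 was 8.64, 8.60 and 8.68 untreated and 8.22, 8.17 and 8.27 treated in HCC827-Del. In HCC827-Del-TM it was 8.54, 8.49 and 8.59 untreated and 8.50, 8.49 and 8.59 treated, with no visible shift. FARS2 fell by 0.42 in HCC827-Del (adjusted p 0.000135), against -0.01 in HCC827-Del-TM (adjusted p 0.9), and the difference of 0.41 passed the test (adjusted p 0.00335). PARS2 fell by 0.31 in HCC827-Del (adjusted p 0.0114), and its difference between the lines of 0.18 did not pass (adjusted p 0.274).

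TARS2, the mitochondrial threonine enzyme, fell in both lines, by 0.49 in HCC827-Del (adjusted p 0.00501) and by 0.44 in HCC827-Del-TM (adjusted p 0.0101). In HCC827-Del-TM the groups overlapped, because 1 treated array was at 6.86 while the other treated arrays were at 6.28 and 6.37 and the untreated ones at 7.00, 6.85 and 6.99. Without treated HCC827-Del-TM replicate 1 the call was lost (adjusted p 0.0519). Without background correction the TARS2 values were -0.28 and -0.25, both called. IARS2, for isoleucine, fell by 0.25 (adjusted p 0.0245) and 0.23 (adjusted p 0.0427), and the call in HCC827-Del-TM was kept in 12 of 24 alternative analyses. HARS2 and SARS2, for histidine and serine, fell in HCC827-Del-TM by 0.26 (adjusted p 0.0162) and 0.23 (adjusted p 0.0305). NARS2, RARS2 and YARS2, for asparagine, arginine and tyrosine, were called in neither line.

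**Figure D3:**
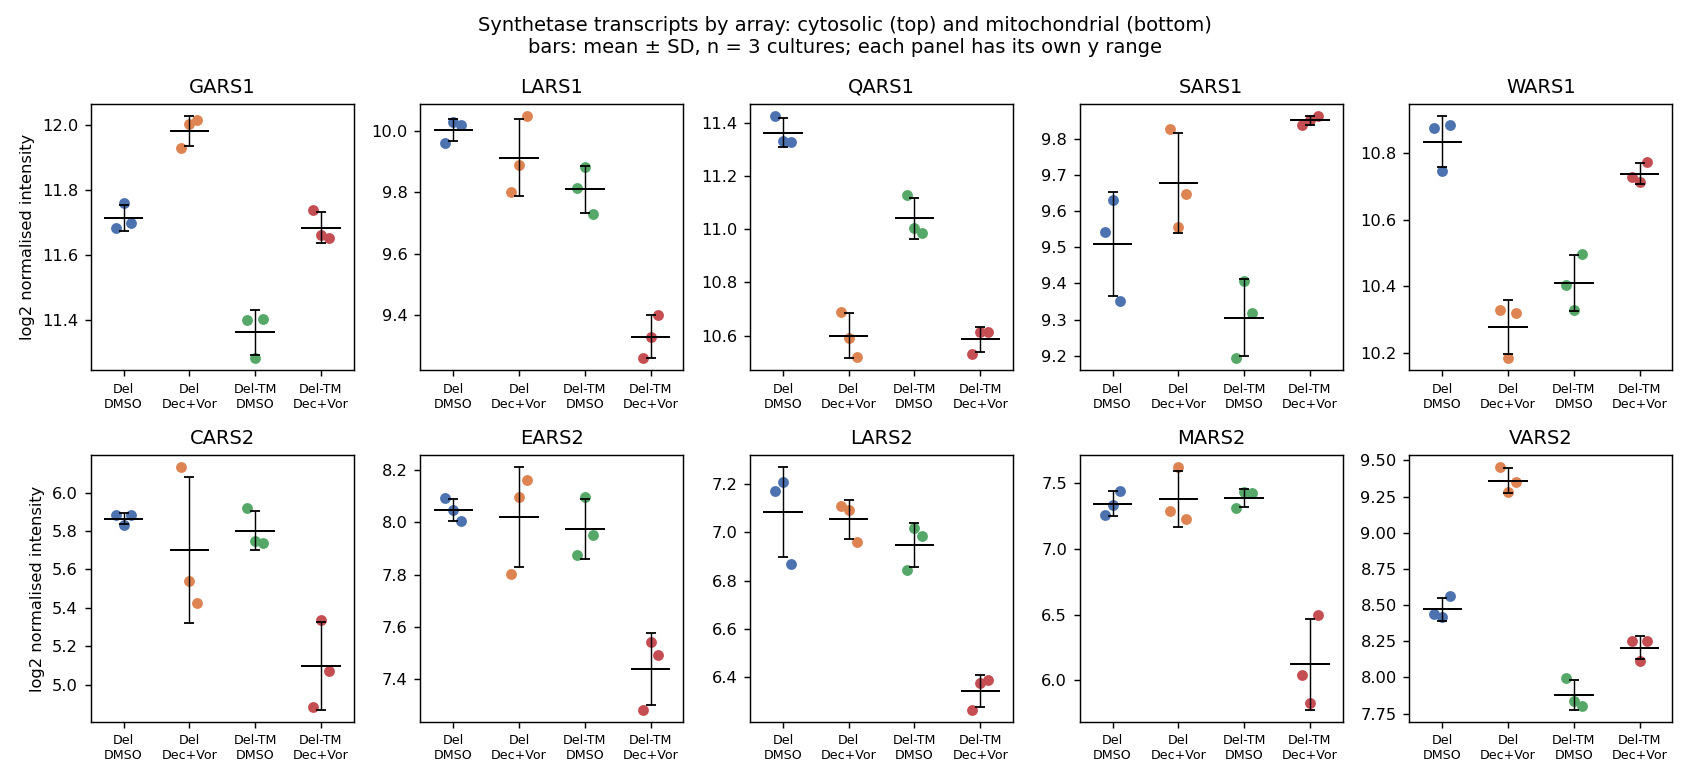
Log2 intensity on each of the 12 arrays for the 10 synthetases with the fullest account, cytosolic in the top row and mitochondrial in the bottom row, with the mean and SD of 3 cultures per group. The treated HCC827-Del-TM arrays are the lowest group for LARS1, LARS2, EARS2, CARS2 and MARS2.

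QARS1, the cytosolic glutamine enzyme, had the largest fall among the cytosolic enzymes in HCC827-Del. It was 11.43, 11.33 and 11.33 in untreated HCC827-Del and 10.69, 10.59 and 10.52 after treatment. In HCC827-Del-TM it was 11.13, 11.01 and 10.99 untreated and 10.53, 10.61 and 10.61 treated. The treated groups of both lines lay together, below both untreated groups. QARS1 fell by 0.76 (SE 0.0732, adjusted p 1.23e-06), or 1.70-fold, in HCC827-Del and by 0.45 (adjusted p 0.000181), or 1.37-fold, in HCC827-Del-TM. The effects differed by 0.31 (SE 0.104, adjusted p 0.0275), a call kept in 16 of 23 alternatives, and the treated lines differed by -0.01 (95% interval -0.171 to 0.144, adjusted p 0.884).

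LARS1, the cytosolic leucine enzyme, fell in HCC827-Del-TM. It was 9.81, 9.88 and 9.73 untreated and 9.26, 9.33 and 9.40 treated there. In HCC827-Del it was 9.96, 10.03 and 10.02 untreated and 9.80, 9.89 and 10.05 treated, with overlap. LARS1 fell by 0.48 (SE 0.0794, adjusted p 0.000222), or 1.40-fold, in HCC827-Del-TM, against -0.09 (adjusted p 0.371) in HCC827-Del. The difference of -0.39 passed the test (SE 0.112, adjusted p 0.0122).

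The multi-synthetase complex holds LARS1 and QARS1 with 5 other enzymes of the list, and none of the 7 was called higher in either line, nor at an unadjusted p under 0.05. In HCC827-Del 2 of 7 fell, EPRS1 by 0.26 (adjusted p 0.0129) and QARS1, or 28.6%, beside 26.5% of all genes called lower, and the median was -0.13. In HCC827-Del-TM 4 of 7 fell, with EPRS1 at -0.45 (adjusted p 0.00035) and IARS1 at -0.28 (adjusted p 0.00333) beside LARS1 and QARS1. That is 57.1%, beside 24.1% of all genes called lower, and the median was -0.28. KARS1, MARS1 and RARS1 were called in neither line.

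SARS1, the cytosolic serine enzyme, rose in HCC827-Del-TM. It was 9.19, 9.41 and 9.32 untreated and 9.84, 9.85 and 9.86 treated there. In HCC827-Del it was 9.54, 9.63 and 9.35 untreated and 9.83, 9.56 and 9.65 treated. The HCC827-Del-TM groups were apart and the HCC827-Del groups overlapped. SARS1 rose by 0.55 (SE 0.0928, adjusted p 0.000286), or 1.46-fold, in HCC827-Del-TM, against 0.17 (adjusted p 0.146) in HCC827-Del. The difference of 0.38 passed the test (adjusted p 0.0332) and was kept in 13 of 23 alternatives.

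GARS1, the glycine enzyme of both compartments, rose in both lines. It was 11.68, 11.76 and 11.70 in untreated HCC827-Del and 11.93, 12.00 and 12.01 after treatment. In HCC827-Del-TM it was 11.40, 11.28 and 11.40 untreated and 11.74, 11.66 and 11.65 treated. The groups were apart in both lines. The log2 fold change was 0.27 (SE 0.0675, adjusted p 0.00454), or 1.20-fold, in HCC827-Del and 0.32 (adjusted p 0.00147), or 1.25-fold, in HCC827-Del-TM. The effects differed by 0.05 (95% interval -0.152 to 0.259, adjusted p 0.685). With arrays scaled by their medians in place of quantile normalisation, the call in HCC827-Del was lost (adjusted p 0.0721). HARS1 fell by 0.22 (adjusted p 0.0158) and 0.26 (adjusted p 0.00609).

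Before treatment no synthetase was called higher in HCC827-Del-TM than in HCC827-Del, and 8 of 33 were called lower. The share called was 24.2%, beside 36.5% of all genes (16.2% higher and 20.3% lower). At an unadjusted p under 0.05 limma gave 2 higher and 12 lower. TARS1, the cytosolic threonine enzyme, was at 0.20 (adjusted p 0.0782) and was called higher with cyclic loess normalisation (adjusted p 0.0381), without background correction (adjusted p 0.024), in a robust trend fit (adjusted p 0.0283), with the authors' deposited log2 values (adjusted p 0.0239) and without untreated HCC827-Del replicate 2 (adjusted p 0.048). The lower genes were the cytosolic AARS1, GARS1, MARS1, QARS1, VARS1 and WARS1 and the mitochondrial NARS2 and VARS2. The groups did not overlap for 17 synthetases, beside 47.2% of all genes. The median difference was -0.16 over the cytosolic and -0.07 over the mitochondrial enzymes, beside -0.03 over all genes.

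VARS2 had the largest difference, at -0.59 (SE 0.0810, adjusted p 6.81e-05), or 1.50-fold lower in HCC827-Del-TM. MARS1, which charges methionine in the cytosol, was 9.55, 9.73 and 9.56 in untreated HCC827-Del and 9.10, 9.15 and 9.12 in untreated HCC827-Del-TM. AARS1, for alanine, was 12.09, 12.15 and 12.30 against 11.66, 11.88 and 11.70. The lines did not overlap for either gene, at -0.49 for MARS1 (adjusted p 0.00155) and -0.44 for AARS1 (adjusted p 0.00148). WARS1 differed by -0.42 (adjusted p 0.00054), GARS1 by -0.35 (adjusted p 0.00113) and QARS1 by -0.32 (adjusted p 0.00359). VARS1 at -0.22 (adjusted p 0.0404) and NARS2 at -0.24 (adjusted p 0.0235) completed the list, and these 2 calls were lost in 8 and 5 of 24 alternatives.

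**Figure D4:**
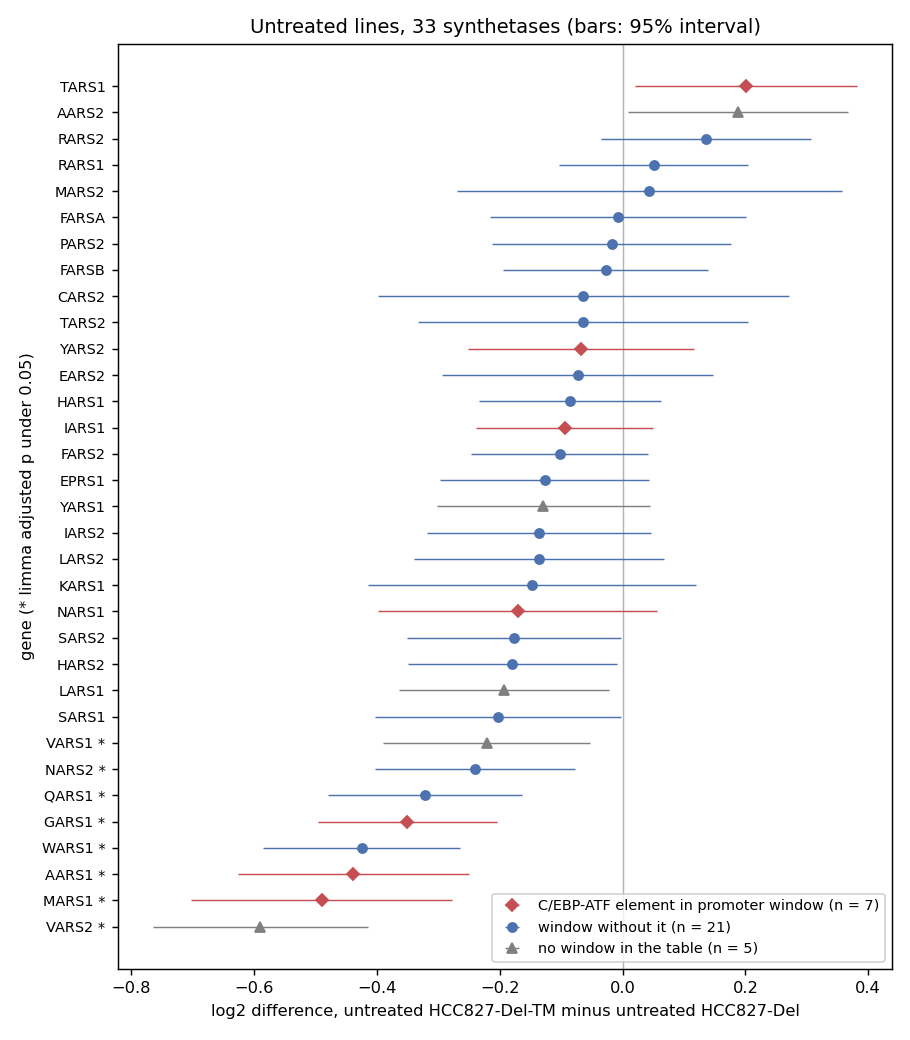
Log2 difference between untreated HCC827-Del-TM and untreated HCC827-Del for the 33 synthetases, sorted, with 95% intervals. Colours and markers separate genes with TGATGNAA in a promoter window, genes whose windows lack it and genes with no window. The 8 genes called are all below 0, from -0.59 for VARS2 to -0.22 for VARS1.

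Of the 7 tested genes with TGATGNAA in a promoter window, 3 were lower in untreated HCC827-Del-TM (AARS1, GARS1 and MARS1) and 0 higher, with a median of -0.17. Of the 21 tested genes whose windows lacked the letters, 3 were lower and 0 higher, with a median of -0.10. The 5 tested genes with no window had 2 lower and 0 higher. In the treated lines the counts were 5 lower and 1 higher of 7, 7 lower and 3 higher of 21, and 4 lower and 0 higher of 5. On treatment of HCC827-Del, 8 of the 21 genes without the letters fell and 0 rose. Of the 7 with them 0 fell and 1 rose, and of the 5 with no window 0 fell and 1 rose. In HCC827-Del-TM 11 fell and 2 rose of 21, 1 fell and 1 rose of 7, and 2 fell and 1 rose of 5. For the difference of effects 3 were lower and 4 higher of 21, 0 were called of 7, and 3 were lower of 5. Of all genes 26.5% fell and 24.8% rose in HCC827-Del, and 24.1% fell and 21.7% rose in HCC827-Del-TM. In the untreated lines 20.3% of all genes were lower, in the treated lines 33.7% and for the difference of effects 22.3%. The shares higher were 16.2%, 29.4% and 20.3% in that order. These counts are descriptions of small sets with no test.

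Other genes of the amino acid response gave a mixed picture. Of 28 tested of 31 listed, 3 were higher and 12 lower in untreated HCC827-Del-TM, with a median of -0.19, and the 53.6% called stands beside 36.5% of all genes. CTH, an enzyme of cysteine synthesis, differed by -1.86 (adjusted p 6.99e-10), PSAT1, of serine synthesis, by -1.26 (adjusted p 5.95e-09) and ASNS, asparagine synthetase, by -0.86 (adjusted p 1.03e-06). The transcript of ATF4 itself differed by -0.01 (adjusted p 0.96), and DDIT4, a stress-induced inhibitor of mTORC1, by 0.95 (adjusted p 3.69e-07) in the other direction.

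On treatment 9 of the 28 rose and 9 fell in HCC827-Del, and 12 rose and 6 fell in HCC827-Del-TM, or 64.3% called in each, beside 51.3% and 45.8% of all genes. The ATF4 transcript moved by -0.22 on the log2 scale (adjusted p 0.0259) in HCC827-Del and 0.28 (adjusted p 0.0081) in HCC827-Del-TM. DDIT4 had -1.65 (adjusted p 7.05e-10) and 0.35 (adjusted p 0.0022), and CTH -0.22 (adjusted p 0.0344) and 0.82 (adjusted p 2.23e-06). These 3 had opposite calls in the lines, as WARS1 did. Further genes of the list moved in opposite directions by their array values, and not all in the manner of WARS1. NUPR1 and SLC1A5 fell in HCC827-Del and rose in HCC827-Del-TM, with untreated and treated arrays apart in each line. SLC7A5 and PPP1R15A went the reverse way, rising in HCC827-Del and falling in HCC827-Del-TM, also with the arrays apart. ATF3 and DDIT3, transcription factors of the stress response, rose in both lines, ATF3 by 1.43 (adjusted p 3.07e-09) and 1.66 (adjusted p 1.53e-09). ASNS rose by 0.47 in HCC827-Del (adjusted p 0.00017) and had 0.06 in HCC827-Del-TM (adjusted p 0.593).

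After treatment the lines differed in more synthetases. In treated HCC827-Del-TM 4 were higher and 16 lower than in treated HCC827-Del, or 60.6%, beside 63.1% of all genes (29.4% higher and 33.7% lower). The groups did not overlap for 25 of 33, beside 67.4% of all genes. MARS2 was lower by 1.26 (adjusted p 4.24e-06), or 2.39-fold, VARS2 by 1.15 (adjusted p 2.8e-08), or 2.23-fold, and LARS2 by 0.71 (adjusted p 1.64e-05), or 1.64-fold. CARS2, LARS1 and EARS2 were lower by 0.60, 0.59 and 0.58 (adjusted p 0.00388, 1.99e-05 and 0.000217). The 4 higher ones were WARS1 at 0.46 (adjusted p 9.89e-05), TARS1 at 0.34 (adjusted p 0.00269), FARS2 at 0.31 (adjusted p 0.00116) and RARS2 at 0.28 (adjusted p 0.00683). With median scaling the median of all genes stood at -0.18 in this comparison, against -0.02 with quantile normalisation, and at -0.10 against 0.01 in the difference of effects. Under it WARS1 alone was called higher and 19 synthetases lower, so 5% of the calls were higher in place of 20%. Over all genes 30.3% of the calls were higher in place of 46.6%. In the difference of effects 1 synthetase was higher and 7 lower under median scaling. There 32.2% of the calls over all genes were higher in place of 47.6%.

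**Figure D5:**
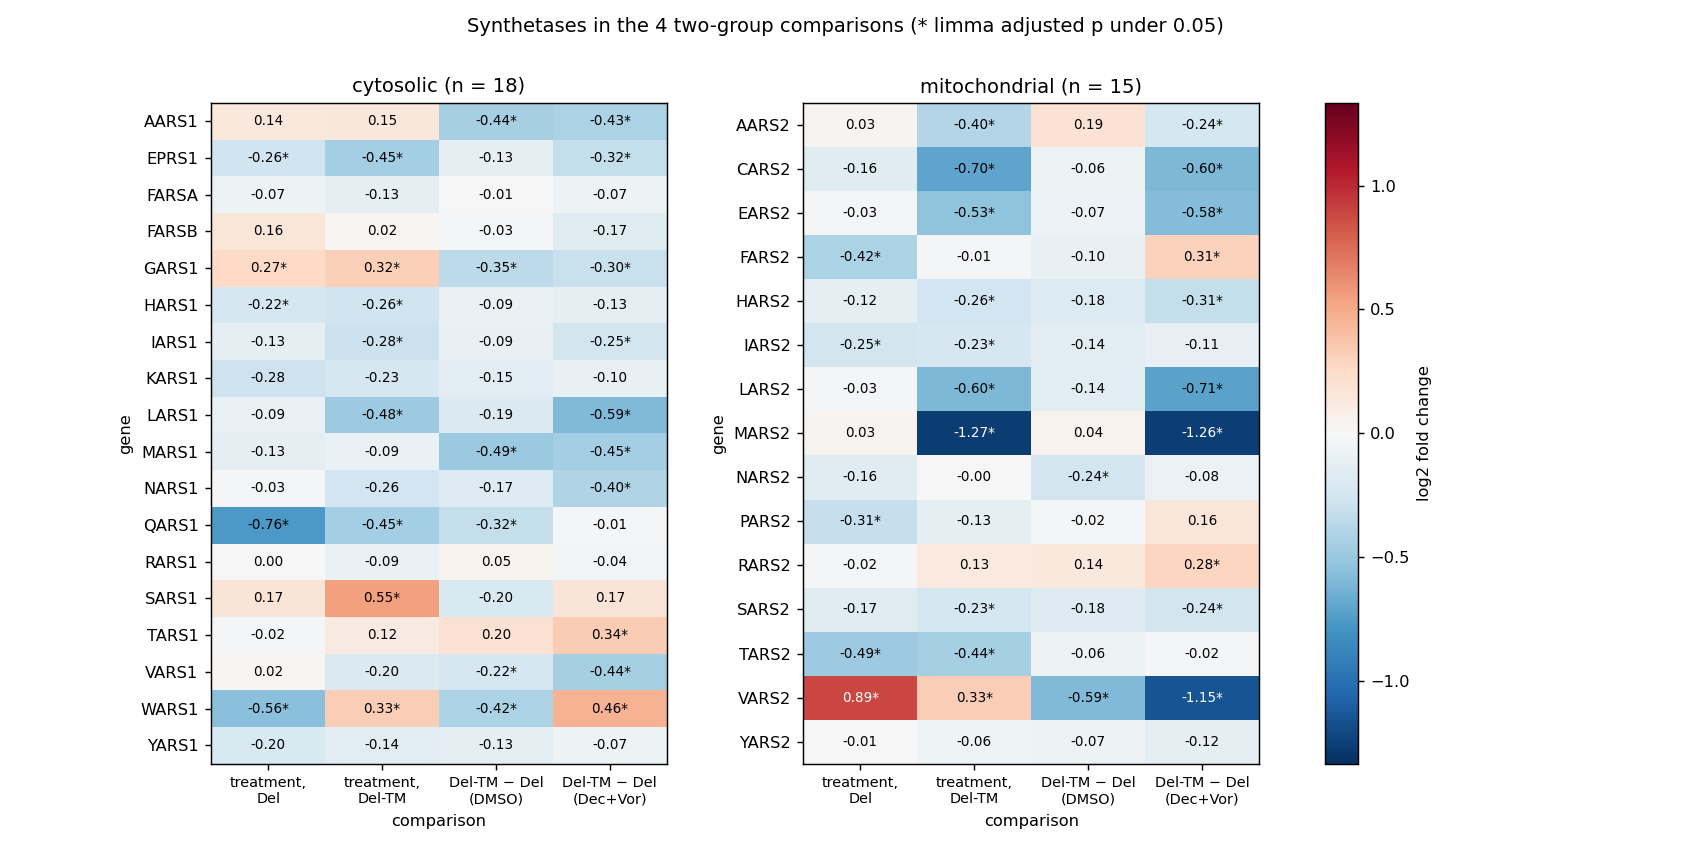
Log2 fold change of each synthetase in the 4 two-group comparisons, cytosolic (18 genes) and mitochondrial (15 genes) in separate panels, with an asterisk where the limma adjusted p is under 0.05. In the column of treated HCC827-Del-TM against untreated HCC827-Del-TM, 9 of the 15 mitochondrial genes are called lower.

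Pairs of enzymes for 1 amino acid did not always move alike. In HCC827-Del-TM the leucine enzymes fell together (LARS1 -0.48, LARS2 -0.60), as did those for histidine (HARS1 -0.26, HARS2 -0.26) and isoleucine (IARS1 -0.28, IARS2 -0.23). The serine enzymes had opposite calls there, with SARS1 at 0.55 and SARS2 at -0.23. For methionine, MARS1 had -0.09 (adjusted p 0.491) while MARS2 fell by 1.27. For valine, VARS1 had -0.20 (adjusted p 0.0536) while VARS2 rose by 0.33. These are values side by side, and the difference within a pair was not tested.

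Of the 33 synthetases, 27 were called in at least 1 of the 5 comparisons. The remaining 6 were FARSA and FARSB, the subunits of the cytosolic phenylalanine enzyme, KARS1, RARS1, YARS1 and YARS2. Their log2 fold changes in the two-group comparisons ran from -0.28 to 0.16, and their 95% intervals reached from -0.542 to 0.326. Some were called in alternative analyses, among them KARS1 at -0.28 (adjusted p 0.022), YARS1 at -0.20 (adjusted p 0.0168) and FARSB at 0.16 (adjusted p 0.0265) on treatment of HCC827-Del in a robust trend fit.

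The partner list held AIMP and EEF1 proteins that bind synthetases or deliver charged transfer RNA, together with enzymes that edit or modify it. Of these, 13 of 17 were tested. AIMP1, AIMP2, EEF1E1 and AARSD1 were not, so the counts include no AIMP protein. In HCC827-Del 2 rose and 4 fell, and in HCC827-Del-TM 0 rose and 5 fell, with 0 higher at an unadjusted p under 0.05 by limma. The shares called, 46.2% and 38.5%, were below those of all genes, 51.3% and 45.8%. EEF1B2, a subunit of the exchange factor of elongation factor 1, fell by 0.71 (adjusted p 4.42e-06) and 0.90 (adjusted p 6.12e-07). EEF1D, another subunit, fell by 0.70 (adjusted p 2.53e-06) and 0.22 (adjusted p 0.0209). XPOT, which exports transfer RNA from the nucleus, fell by 0.49 in HCC827-Del-TM (adjusted p 0.00102).

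GATB, a subunit of the amidotransferase that makes mitochondrial glutaminyl-tRNA, fell by 0.43 (adjusted p 8.48e-05) in HCC827-Del and 0.20 (adjusted p 0.0208) in HCC827-Del-TM. PSTK, a kinase on the route to selenocysteinyl-tRNA, rose by 0.51 in HCC827-Del (adjusted p 0.000407) and had -0.09 in HCC827-Del-TM (adjusted p 0.479), and the effects differed by -0.60 (adjusted p 0.00238).

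Of 8 tested factors of mitochondrial translation of 9 listed, 2 rose and 2 fell in HCC827-Del, and 1 rose and 3 fell in HCC827-Del-TM, or 50% called in each, beside 51.3% and 45.8% of all genes. TUFM, the elongation factor that brings charged transfer RNA to the mitochondrial ribosome, fell by 0.27 (adjusted p 0.028) and 0.38 (adjusted p 0.00461). GFM1, the translocation factor, had 0.12 in HCC827-Del (adjusted p 0.207) and fell by 0.60 in HCC827-Del-TM (adjusted p 1.7e-05), with effects that differed by -0.71 (adjusted p 0.000105). MTIF2, an initiation factor, rose by 0.19 (adjusted p 0.0288) in HCC827-Del and fell by 0.25 (adjusted p 0.00892) in HCC827-Del-TM, and its effects differed by -0.44 (adjusted p 0.00232). The highest value of the list in each line was that of MTRF1L, at 0.31 in HCC827-Del and 0.25 in HCC827-Del-TM. EGFR, the gene that carries the alleles of both lines, was called in none of the comparisons, with values from -0.01 to 0.10.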

How the data were processed

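Total RNA of 12 cultures was measured on Illumina bead arrays. The deposited signal intensities of the probes are named as non-normalised, and their medians ran from 95.4 to 104.5 across arrays. Whether background had already been subtracted from them was not tested. Each has a detection p-value per the file headers. The authors also deposited a table of log2 values, used here as an alternative. No label or header names the software. Of 47323 probes, 30113 had 1 gene symbol in the platform annotation. With limma 3.58.1 (R 4.3.3, statmod 1.5.0), the signals were corrected with nec (noise from detection p-values, offset 16), quantile-normalised and put on the log2 scale. A probe was kept with a detection p under 0.01 on at least 3 arrays, and the brightest kept probe stood for a gene. The fit (lmFit, eBayes) had 1 coefficient per group over all 12 arrays, with 5 contrasts, two-sided tests and Benjamini-Hochberg adjustment over 11808 genes. The median SE was 0.0955, and 0.135 for the difference of effects. The number of arrays limits the precision.

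The members and the lists of partner, response and marker genes were chosen with earlier results of these data known. Array values are printed for synthetases called with a log2 fold change of at least 0.5 in any two-group comparison and for WARS1 and GARS1, and for FARS2, MARS1, AARS1 and TARS2, which were added after their values were seen. Of the other lists, genes named were among those called with the largest changes, with ATF4, ASNS and EGFR. IRF1, GATB, DDIT3, NUPR1, SLC1A5, SLC7A5, PPP1R15A, CD74 and IFI30 were singled out after their values were seen. Replicates are biological per the labels. The main fit did not pair cultures by replicate number. Deviations of same-numbered arrays correlated at -0.0238 to 0.052, which cannot show whether these cultures were handled together. On simulated data with 100 genes changed 2-fold, 98% were recovered for treatment of HCC827-Del-TM, and 78% of those changed 1.5-fold. For the difference of effects 95% and 56% were recovered. The simulations changed few of the 11808 genes, while 36.5% to 63.1% of all genes were called in the data. These rates therefore need not hold for the comparisons above.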

Additional observations from a re-analysis of the deposited data

Results flagged for a closer look

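The treatment effect differed between HCC827-Del-TM and HCC827-Del, by the test of the difference itself in the limma fit (adjusted p under 0.05 over all genes), for 10 synthetases. On the log2 scale, as the effect in HCC827-Del-TM minus that in HCC827-Del, the difference was 0.89 for WARS1, 0.41 for FARS2, 0.38 for SARS1 and 0.31 for QARS1. It was -1.30 for MARS2, -0.57 for LARS2, -0.56 for VARS2, -0.51 for EARS2, -0.43 for AARS2 and -0.39 for LARS1. No explanation of these differences was tested.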

How the results depend on the processing

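No called synthetase changed direction in any of up to 24 alternative analyses. Every call of WARS1, MARS2, VARS2, LARS1, LARS2, EARS2 and CARS2 was kept in all alternatives that tested the gene. CARS2 was not tested where detection on all 12 arrays was required. Values were smaller for MARS2, LARS2, CARS2, TARS2 and PARS2 without background correction. Median scaling changed the most counts: in HCC827-Del cytosolic enzymes higher went from 1 to 0 and lower from 4 to 2, and mitochondrial ones lower from 4 to 2. Under it mitochondrial enzymes lower in the untreated lines went from 2 to 1, and higher in the treated lines went from 2 to 1 (cytosolic) and 2 to 0 (mitochondrial). Higher in the difference of effects went from 3 to 1 and from 1 to 0. Cyclic loess gave 2 mitochondrial enzymes lower in HCC827-Del and 1 cytosolic enzyme higher in the untreated lines, where 12.5% of the calls were then higher in place of 0%. Without background correction, with the authors' deposited log2 values and with a robust trend fit, 2 cytosolic enzymes were higher in HCC827-Del and 1 in the untreated lines. The authors' values gave 7 cytosolic enzymes lower in HCC827-Del. With only the groups compared, 1 mitochondrial enzyme was lower in the untreated lines. The cause of these changes was not tested. Leaving out each replicate in turn gave ranges for cytosolic enzymes lower of 3 to 5 in HCC827-Del, 5 to 8 in HCC827-Del-TM, 5 to 6 untreated, 8 to 8 treated and 1 to 1 for the difference of effects. Cytosolic enzymes higher numbered 1 to 1, 3 to 3, 0 to 1, 2 to 3 and 1 to 3 in that order. Mitochondrial enzymes lower numbered 3 to 4, 6 to 9, 1 to 3, 6 to 8 and 5 to 6, and higher 1, 1, 0, 2 and 1 throughout. With the replicate number as a block, 13 synthetases in place of 14 were lower in HCC827-Del-TM, with the call of IARS2 lost, and no count moved by over 1.5 times. Some calls were lost in part of the alternatives. These were EPRS1, GARS1, HARS1, IARS2 and PARS2 in HCC827-Del, HARS2, IARS2, SARS2 and TARS2 in HCC827-Del-TM, VARS1 and NARS2 untreated, TARS1, FARS2, RARS2, AARS2 and SARS2 treated, and QARS1, SARS1 and FARS2 in the difference of effects. Chip positions were not in the files, so a chip block was not run. CARS2, not detected on 1 array, lies near the background there, where differences are compressed.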
